A study of Mus musculus with 24 samples.

Results

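The genes followed here are 37 that encode glucose carriers, the enzymes of glycolysis and of the pentose phosphate pathway, lactate carriers, the oxygen-sensing machinery and well-known targets of the hypoxia response. They were taken by symbol from the deposited table of TPM values, a measure of transcript level scaled to gene length and library size, which holds 55291 symbols, and all 37 were present. Bulk RNA-seq was done on mouse bone marrow-derived dendritic cells, that is, bone marrow cells grown in the growth factor GM-CSF. Cells of 3 strains, named PWD, C57 and B6, were either stimulated with lipopolysaccharide (LPS, the endotoxin of Escherichia coli) at 10 ng/ml for 6 h or left untreated. This gave 6 groups of 4 libraries: PWD LPS, PWD untreated, C57 LPS, C57 untreated, B6 LPS and B6 untreated. PWD mice are inbred but descend from wild-caught house mice, and B6 is the usual short name of a standard laboratory strain. The labels name C57 and B6 as separate strains and do not say what sets them apart. All 6 groups share the GM-CSF culture, no transgene or deleted gene is named for any of them, and the labels give no ages. The replicates were cultures of separate mice, per the study's design text.

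Glycolysis splits glucose into pyruvate in the cytosol. Glucose enters through facilitative carriers of the Slc2a family, is trapped by hexokinases, is committed by phosphofructokinase, and leaves as pyruvate or, after lactate dehydrogenase, as lactate through Slc16a carriers. The pentose phosphate pathway branches off at glucose 6-phosphate and yields NADPH and ribose. HIF-1α is a transcription factor that prolyl hydroxylases of the Egln family mark for destruction when oxygen is present. LPS-activated dendritic cells and macrophages are known for a shift towards glycolysis and for HIF-1α made in the presence of oxygen.

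All 37 genes passed the filter of at least 1 TPM in at least 4 libraries that left 13246 genes for testing. Adm did so only through the 4 PWD LPS libraries, so its calls in PWD LPS are bound to that choice. Without Adm the higher calls given below would be 7 of 36 for PWD LPS over untreated, 20 and 7 for PWD LPS over B6 LPS and over C57 LPS, and 10 and 3 for the responses PWD minus B6 and PWD minus C57. The higher calls that held in all 4 scalings, defined below, would be 7 for PWD LPS over untreated, 13 and 7 for PWD LPS over B6 LPS and over C57 LPS, and 9 and 3 for those responses. For comparisons with PWD LPS, the counts below of genes whose groups did not overlap still include Adm. So do the counts after median-of-ratios scaling. The separation of Adm there is bound to the same choice. Each comparison was tested with limma on log2(TPM + 1), with all 6 groups in 1 model, and a gene was called at a Benjamini-Hochberg adjusted p below 0.05 over those 13246 genes. Fold changes are log2 differences on that scale, which understates the change of low genes, and errors of levels are SDs over n = 4 libraries. Structural RNAs such as 7SL and 7SK took between 28.8% and 44.2% of a library's TPM, and with LPS the median of all tested genes moved by -0.32 in PWD, -0.32 in C57 and -0.43 in B6. Each value was therefore also computed after median-of-ratios scaling, which brings that median to about 0, after quantile normalization, and without the structural RNAs. "In all 4 scalings" below refers to these and to the unscaled values. In every group libraries 3 and 4 had between 41.9 and 104 TPM of Xist and libraries 1 and 2 at most 0.0901 TPM, so the mice differed in sex in the same way in each group. In PWD untreated these pairs of libraries also differed in structural RNA, with 29.3% and 28.8% in libraries 3 and 4 against 41.9% and 40.3% in libraries 1 and 2. Levels such as those of Pgam1 and Hif1a, given below, split the same way in PWD untreated, and sex and these shares cannot be told apart there. Of the 151 calls that the naming rule covers, 117 were called in libraries 1 and 2 alone and in libraries 3 and 4 alone, and 150 had the same direction in both. The exception was Pfkfb3 in PWD over C57 untreated, with -0.80 in libraries 1 and 2 and 0.04 in libraries 3 and 4. Of 23 named differences between the LPS responses of 2 strains, 19 were called in libraries 1 and 2 alone, 13 in libraries 3 and 4 alone and 10 in both. Where a call under that rule, printed below with its test, did not hold in both, the values of each pair of libraries are given beside it. Tests printed outside that rule, such as those of Eno1, of genes from further lists and with copies added, were not split in this way.

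The cultures carried all macrophage markers and part of the dendritic cell markers. All 9 macrophage markers averaged 1 TPM or more in every group, and their summed level averaged 4335 TPM in PWD LPS and 5841 TPM in PWD untreated, 8657 TPM in C57 LPS and 12555 TPM in C57 untreated, and 5679 TPM in B6 LPS and 8968 TPM in B6 untreated. Of 10 conventional dendritic cell markers, 5 to 8 reached 1 TPM in a group, with summed levels of 309 to 917 TPM over all libraries. The sum averaged 443 TPM in PWD LPS against 417 TPM in PWD untreated, 501 TPM in C57 LPS against 453 TPM in C57 untreated, and 864 TPM in B6 LPS against 647 TPM in B6 untreated. Itgax, which encodes CD11c, averaged between 238 and 340.3 TPM in the 6 groups, whereas Xcr1 stayed under 0.1 TPM in the PWD groups and in B6 untreated, and Clec9a stayed under 0.1 TPM in the PWD groups. Of 10 neutrophil and granulocyte precursor markers 8 to 10 reached 1 TPM, and their sum averaged 1010 TPM in PWD LPS against 2291 TPM in PWD untreated, 2154 TPM in C57 LPS against 3175 TPM in C57 untreated, and 1212 TPM in B6 LPS against 1703 TPM in B6 untreated. The eosinophil granule genes Prg2 and Epx averaged 120 and 24.3 TPM in PWD LPS and 129.6 and 26.6 TPM in PWD untreated, and were under 5 TPM in the other groups. Summed over 8 genes typical of eosinophils, basophils or mast cells, B6 averaged 93.5 TPM after LPS against 12.8 TPM untreated. The same sum averaged 45.8 TPM in C57 LPS against 19.9 TPM in C57 untreated, and 153 TPM in PWD LPS against 164 TPM in PWD untreated. This sum was thus higher after LPS in B6 and C57, without overlap of libraries, while the PWD libraries overlapped. The number of the 8 genes that averaged 1 TPM or more did not follow it. That number was 3 in B6 LPS against 4 in B6 untreated, 5 in both C57 groups, and 5 in PWD LPS against 4 in PWD untreated. Fcer1a averaged under 0.1 TPM in B6 LPS. The macrophage and neutrophil sums differed between the strains and were lower after LPS. The mean dendritic cell sum also differed between the strains but was higher after LPS in each, with overlapping libraries in PWD and C57. Fewer of the 10 dendritic cell markers averaged 1 TPM or more after LPS, however. There were 5 in PWD LPS against 7 in PWD untreated, 6 in C57 LPS against 8 in C57 untreated, and 6 in B6 LPS against 7 in B6 untreated. Lyz2 alone made up 82.7% to 91.1% of the macrophage sum, and of the 9 macrophage markers 8 had a lower mean after LPS in PWD, 7 in C57 and 6 in B6. Adgre1, which encodes F4/80, went the other way in every strain, with 119 TPM in PWD LPS against 72.4 TPM in PWD untreated. In bulk RNA fewer cells of a type and less RNA per cell cannot be told apart. The part of the cell mix in the results that follow was not tested.

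LPS raised transcripts of a glucose carrier, an inducible hexokinase and an enzyme that makes a phosphofructokinase activator. Most of the enzymes further down were called lower without rescaling. In PWD, C57 and B6 alike 3 genes were called higher, against 6.2% of all tested genes: the glucose carrier Slc2a6, the hexokinase Hk2, and Pfkfb3, whose enzyme makes the phosphofructokinase activator fructose 2,6-bisphosphate. These 3 were called higher in every strain in all 4 scalings. Another 17 of the 37 were called lower in all 3 strains, against 39.3% of all genes, and 8 of the 17 were so in all 4 scalings: Gpi1, Pfkfb4, Pgam1, Eno1, Pkm, Slc16a1, Tkt and Pdk1. Both counts, of 3 and of 17, were near or slightly above the shares of all genes. After median-of-ratios scaling 8 of the 37 were called higher and 8 lower in all 3 strains, against 2242 and 2036 of the 13246 tested genes.

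By strain, PWD LPS against PWD untreated gave 8 genes higher and 22 lower of 37, where 11.1% of all tested genes were higher, 52.4% lower and 63.5% called in either direction. C57 LPS against C57 untreated gave 4 higher and 21 lower, against 10.4%, 52.2% and, in either direction, 62.5% of all genes. B6 LPS against B6 untreated gave 7 higher and 24 lower, against 11.9%, 59.7% and, in either direction, 71.6%. The share of lower genes among the 37 was thus near or slightly above that of all genes. The direction of the balance rested on the scaling, since the median-of-ratios values gave 14 higher and 11 lower in PWD, 12 and 14 in C57, and 14 and 13 in B6. Calls that held in all 4 scalings numbered 8 higher and 11 lower in PWD, 4 and 13 in C57, and 7 and 12 in B6. The groups did not overlap for 29 of the 37 genes in PWD, 24 in C57 and 31 in B6, against 53.8%, 58.5% and 64.3% of all tested genes.

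**Figure D1:**
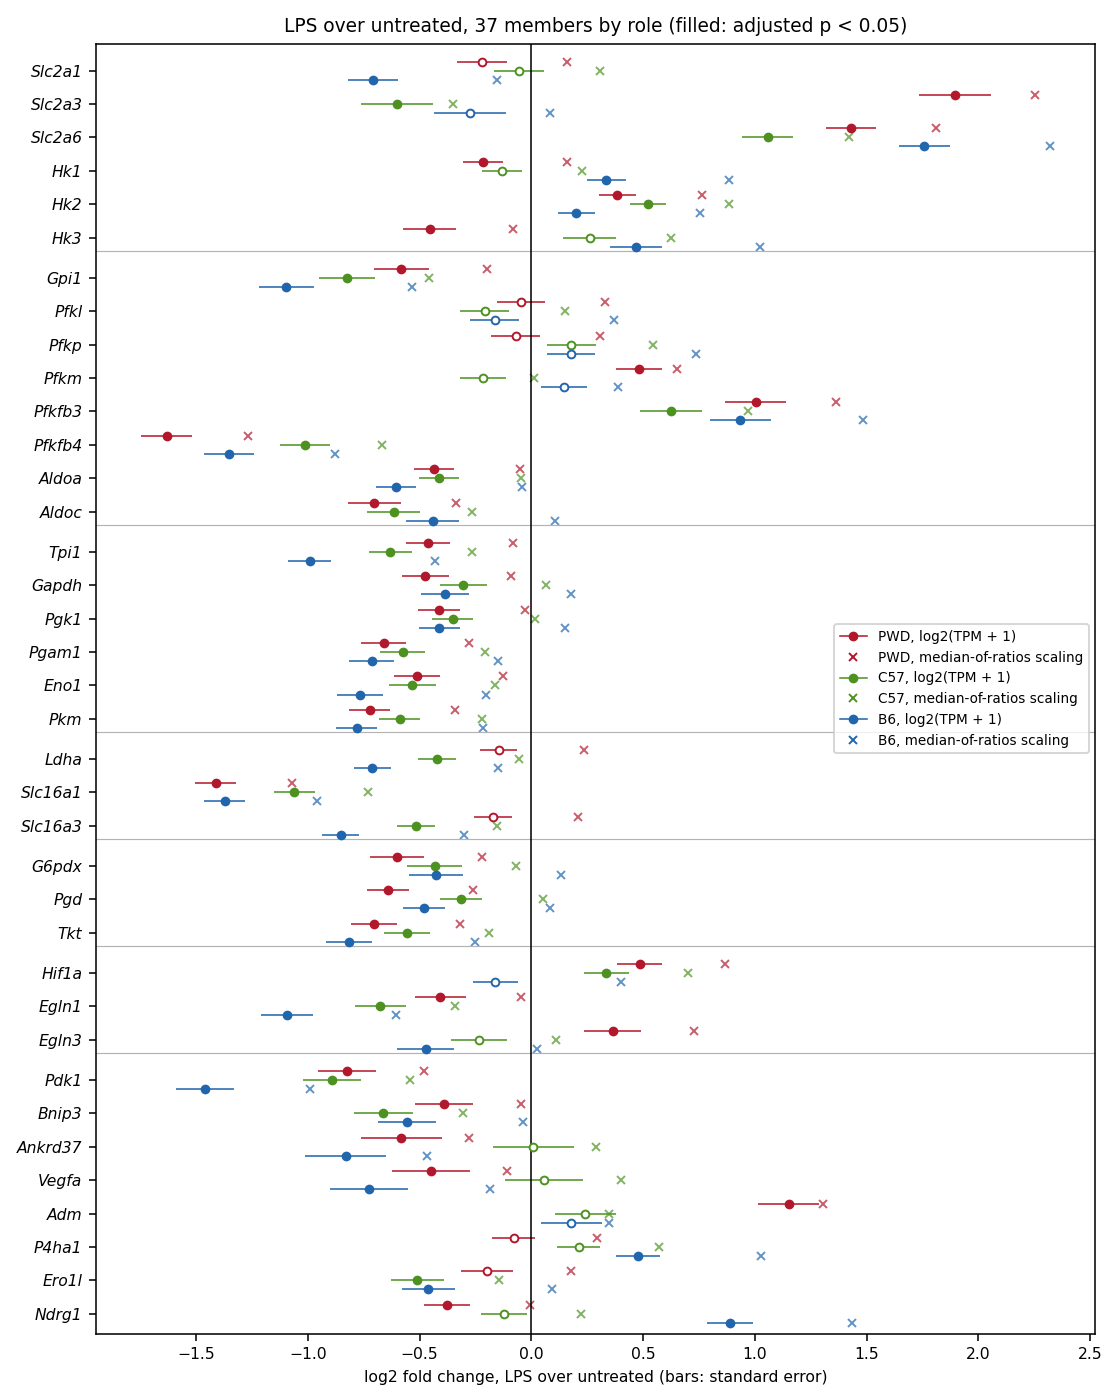
Log2 change of TPM + 1 with LPS over untreated for the 37 genes, ordered by role, in PWD, C57 and B6 (x axis, log2 units; bars are SEs, filled points have a limma adjusted p below 0.05, crosses are the values after median-of-ratios scaling). Slc2a6, Hk2 and Pfkfb3 lie right of 0 in all 3 strains, the points of the triose steps lie left of 0, and the crosses sit to the right of nearly every point.

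The summed TPM of the 16 enzymes from the hexokinases to lactate dehydrogenase shows the scale of these changes. It averaged 3799 ± 104 TPM in PWD LPS and 5224 ± 687 TPM in PWD untreated, 5594 ± 864 TPM in C57 LPS and 7345 ± 109 TPM in C57 untreated, and 4140 ± 253 TPM in B6 LPS and 6010 ± 471 TPM in B6 untreated. As a share of all TPM outside the structural RNAs it was 0.612% in PWD LPS and 0.803% in PWD untreated, 0.877% in C57 LPS and 1.12% in C57 untreated, and 0.658% in B6 LPS and 0.966% in B6 untreated. Both measures were lower after LPS in every strain, and the libraries of the 2 treatments did not overlap in either. After median-of-ratios scaling the difference nearly vanished and turned in B6: the rescaled sum was 4136 ± 152 in PWD LPS and 4329 ± 84.8 in PWD untreated. It was 5755 ± 333 in C57 LPS and 5899 ± 158 in C57 untreated, and 5693 ± 137 in B6 LPS and 5580.4 ± 67.5 in B6 untreated. The libraries overlapped in each strain.

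Promoters are shown for the 3 genes that rose in every strain and for 2 that fell in every strain, Pdk1 and Slc16a1, chosen after their values were seen. Each run is read 5′ to 3′ on the gene's strand and comes from the 250 bases before the start in RefSeq's GRCm38.p6 annotation, without bases that another transcript of the gene places in an exon. Capitals mark ACGTG and GCGTG, the core letters of hypoxia response elements, on either strand, so that CACGT and CACGC in the printed strand are the same letters read backwards. The windows are chr2:27027999-27028248, minus strand, for Slc2a6; chr6:82774455-82774704, minus strand, for Hk2; chr2:11502102-11502340, minus strand, for Pfkfb3 (the downstream of its 2 listed starts); chr2:71872974-71873223, plus strand, for Pdk1; and chr3:104638414-104638663, plus strand, for Slc16a1.
Slc2a6: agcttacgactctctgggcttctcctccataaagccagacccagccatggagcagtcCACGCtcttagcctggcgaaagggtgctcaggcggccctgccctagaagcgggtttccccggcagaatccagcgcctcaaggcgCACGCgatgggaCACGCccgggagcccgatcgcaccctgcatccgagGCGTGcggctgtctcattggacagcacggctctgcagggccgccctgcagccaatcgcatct
Hk2: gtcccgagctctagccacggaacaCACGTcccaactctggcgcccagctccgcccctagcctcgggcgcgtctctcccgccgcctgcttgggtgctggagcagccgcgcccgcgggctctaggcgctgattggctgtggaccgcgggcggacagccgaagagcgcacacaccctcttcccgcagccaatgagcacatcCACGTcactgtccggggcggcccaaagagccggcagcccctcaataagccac
Pfkfb3: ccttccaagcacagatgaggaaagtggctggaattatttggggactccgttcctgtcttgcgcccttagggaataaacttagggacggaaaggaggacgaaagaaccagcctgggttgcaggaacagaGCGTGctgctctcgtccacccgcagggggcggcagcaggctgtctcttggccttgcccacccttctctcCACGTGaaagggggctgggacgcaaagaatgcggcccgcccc
Pdk1: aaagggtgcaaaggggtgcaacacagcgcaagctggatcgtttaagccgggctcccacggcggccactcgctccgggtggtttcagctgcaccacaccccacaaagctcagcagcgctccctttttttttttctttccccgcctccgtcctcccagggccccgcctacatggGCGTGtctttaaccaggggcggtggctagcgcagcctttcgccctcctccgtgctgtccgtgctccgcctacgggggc
Slc16a1: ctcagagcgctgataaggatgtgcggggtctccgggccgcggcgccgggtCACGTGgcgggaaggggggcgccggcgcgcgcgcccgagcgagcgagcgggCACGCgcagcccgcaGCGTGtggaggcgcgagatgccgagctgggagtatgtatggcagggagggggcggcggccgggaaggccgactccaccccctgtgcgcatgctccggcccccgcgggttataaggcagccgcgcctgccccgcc
In the printed runs Slc2a6 and Slc16a1 hold 4 such cores each, Pfkfb3 holds 3, Hk2 holds 2 and Pdk1 holds 1, so genes that rose and genes that fell both have them. The other listed window holds 1 for Pfkfb3 and 0 for Pdk1. In Pfkfb3 and Slc16a1 a pair of cores overlaps in the palindrome CACGTG, which is counted once on each strand.

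Over the whole set, 34 of the 37 genes have a window in that annotation. At least 1 ACGTG or GCGTG on either strand was found for 32 of the 34 genes (94.1%), against 41.5% of 27025 genes with a window. Counted by window, 40 of 49 (81.6%) held one, against 38.6% of 32851 windows of the same length. ACGTG was in 44.9% of the genes' windows and in 16.6% of all windows, GCGTG in 57.1% and 28.2%, and CACGTG in 12.2% and 6.02%. The windows of these genes are also richer in G and C, with a median of 60.4% against 52.4% over all windows. A match is a description of letters in the reference strain and shows neither binding nor a response.

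Slc2a6 (chr2:27021363-27027998, minus strand in GRCm38), a glucose carrier abundant in myeloid cells, was the carrier called higher in all 3 strains. PWD cells had 242, 283, 311 and 295 TPM after LPS, against 82.4, 90.3, 127 and 123 TPM untreated. C57 cells had 169, 165, 194 and 202 TPM after LPS, against 84.4, 88.8, 86 and 87.9 TPM untreated, and B6 cells had 330.1, 288, 329.9 and 316 TPM after LPS, against 99.7, 88.2, 82.5 and 101 TPM untreated. Every LPS library stood above every untreated library of its strain. Slc2a6 rose by 1.43 ± 0.11 (SE, limma adjusted p = 4.77e-11) in PWD, 1.06 ± 0.11 (SE, limma adjusted p = 1.91e-08) in C57 and 1.76 ± 0.11 (SE, limma adjusted p = 5.01e-13) in B6. C57 rose less than B6, with a difference of the log2 changes of -0.70 ± 0.16 (SE, limma adjusted p = 0.0037), whereas PWD differed from C57 and B6 by amounts that were not called (0.37 and -0.33), though both were called after median-of-ratios scaling (0.39 and -0.51).

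Slc2a3 (chr6:122727809-122801640, minus strand), the high-affinity glucose carrier GLUT3, set PWD apart. Its level was 29, 36, 38.6 and 40.9 TPM after LPS, against 6.92, 7.08, 11.9 and 10.6 TPM untreated in PWD cells. It was 1.30, 1.27, 1.45 and 1.95 TPM after LPS, against 2.58, 2.07, 2.70 and 3.92 TPM untreated in C57 cells, and 1.90, 1.23, 1.20 and 1.48 TPM after LPS, against 2.30, 1.65, 1.62 and 2.27 TPM untreated in B6 cells. The PWD libraries were higher than all others in both treatments, the PWD groups did not overlap, and in C57 and B6 every library stayed under 4 TPM. In PWD the gene rose by 1.90 ± 0.16 (SE, limma adjusted p = 1.71e-10). The change differed from that in B6 by 2.17 ± 0.23 (SE, limma adjusted p = 8.19e-08) and from that in C57 by 2.50 ± 0.23 (SE, limma adjusted p = 1.25e-08). In C57 the log2 change was -0.60, called in all but 1 of the 4 scalings, and in B6 it was -0.27 and not called. After LPS the PWD cells exceeded the C57 cells by 3.89 ± 0.16 (SE, limma adjusted p = 1.85e-17) and the B6 cells by 3.92 ± 0.16 (SE, limma adjusted p = 1.24e-17) on the log2 scale. Untreated, the differences were 1.39 ± 0.16 (SE, limma adjusted p = 3.79e-08) and 1.75 ± 0.16 (SE, limma adjusted p = 4.09e-10).

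Slc2a1, the widely expressed carrier GLUT1, differed in its response between strains. It averaged 93.5 ± 3.92 TPM in PWD LPS and 110.1 ± 18 TPM in PWD untreated, 143 ± 15.4 TPM in C57 LPS and 148 ± 6.36 TPM in C57 untreated, and 47.6 ± 7.90 TPM in B6 LPS and 77.8 ± 6.50 TPM in B6 untreated. In B6 it fell by 0.71 ± 0.11 (SE, limma adjusted p = 3.43e-06) without rescaling, a call that was lost after median-of-ratios scaling (-0.15). The changes of -0.22 in PWD and -0.06 in C57 were not called, and that scaling turned them to 0.16 and 0.31, of which the C57 value was called. The response of C57 exceeded that of B6 by 0.65 ± 0.16 (SE, limma adjusted p = 0.00583) and that of PWD exceeded B6 by 0.49 ± 0.16 (SE, limma adjusted p = 0.0252), in all 4 scalings. The PWD difference lost its call without B6 LPS library 2, B6 untreated library 4 or PWD untreated library 1 or 2 (log2 difference 0.37 to 0.44, limma adjusted p = 0.058 to 0.0684) and with no filter on low genes (limma adjusted p = 0.0573). It was 0.80 (limma adjusted p = 0.00537) in libraries 1 and 2 and 0.17 (limma adjusted p = 0.468) in libraries 3 and 4.

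As shares of the 3 carriers' summed TPM, which do not depend on how a library is scaled, Slc2a6 held 68.5% ± 1.47 in PWD LPS and 46.8% ± 1.36 in PWD untreated. It held 55.8% ± 0.499 in C57 LPS and 36.5% ± 0.454 in C57 untreated, and 86.6% ± 1.28 in B6 LPS and 53.8% ± 1.10 in B6 untreated. Slc2a1 held 22.8% ± 2.07 in PWD LPS and 49.2% ± 1.60 in PWD untreated, 43.7% ± 0.451 in C57 LPS and 62.3% ± 0.606 in C57 untreated, and 13% ± 1.30 in B6 LPS and 45.1% ± 1.15 in B6 untreated. Slc2a6 thus held the largest share of the 3 transcripts after LPS in all 3 strains, and no library of one treatment reached the range of the other. Glucose uptake and the place of each carrier in the cell were not measured, so these shares do not show which carrier brings glucose in.

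Hk2 (chr6:82725025-82774454, minus strand), the inducible hexokinase that binds mitochondria, rose modestly. The PWD libraries had 59.5, 62.3, 66 and 59.9 TPM after LPS, against 43.4, 43.8, 51.9 and 49.9 TPM untreated. The C57 libraries had 70.1, 75, 84.9 and 78.4 TPM after LPS, against 50.4, 57.4, 49.9 and 55.6 TPM untreated, and the B6 libraries had 44.4, 42.8, 48.5 and 44.3 TPM after LPS, against 41.5, 35.5, 39.3 and 39.7 TPM untreated. No LPS library of a strain fell into the range of its untreated libraries. Hk2 rose by 0.39 ± 0.08 (SE, limma adjusted p = 0.000233) in PWD, 0.52 ± 0.08 (SE, limma adjusted p = 6.07e-06) in C57 and 0.20 ± 0.08 (SE, limma adjusted p = 0.0303) in B6. The 3 responses were not called different from each other in this fit. Without the structural RNAs the response exceeded that of B6 by 0.26 (limma adjusted p = 0.0117) in PWD and 0.38 (limma adjusted p = 0.000809) in C57. The C57 difference was also called with a term for mouse numbers (limma adjusted p = 0.0423) and without B6 untreated library 2 or C57 LPS library 1 (limma adjusted p = 0.0397 to 0.045). The B6 rise lost its call without B6 LPS library 3 or B6 untreated library 2 (log2 difference 0.16 to 0.17, limma adjusted p = 0.0998 to 0.113) and in a fit of the B6 groups alone (limma adjusted p = 0.0519). It was 0.18 (limma adjusted p = 0.128) in libraries 1 and 2 and 0.23 (limma adjusted p = 0.053) in libraries 3 and 4. The rise was larger after median-of-ratios scaling, with values of 0.76, 0.88 and 0.76.

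Hk1, the constitutive hexokinase, and Hk3, the myeloid one, responded differently in PWD and B6. Hk1 stood at 30.6 ± 0.524 TPM in PWD LPS and 35.8 ± 3.90 TPM in PWD untreated, against 28.8 ± 1.70 TPM in B6 LPS and 22.7 ± 2.45 TPM in B6 untreated. Hk3 stood at 28.6 ± 3.69 TPM in PWD LPS and 40.0 ± 8.15 TPM in PWD untreated, against 59.4 ± 1.32 TPM in B6 LPS and 42.9 ± 5.19 TPM in B6 untreated. In B6 Hk1 rose by 0.34 ± 0.09 (SE, limma adjusted p = 0.00158) and Hk3 by 0.47 ± 0.12 (SE, limma adjusted p = 0.000974), in all 4 scalings. The falls in PWD, -0.21 and -0.46, were called without rescaling, but the median-of-ratios values were 0.16 and -0.08, so the Hk1 direction in PWD turned. The differences between the responses held in all 4 scalings: -0.55 ± 0.13 (SE, limma adjusted p = 0.00201) for Hk1 and -0.92 ± 0.17 (SE, limma adjusted p = 0.00018) for Hk3, PWD minus B6. C57 also differed from B6 for Hk1 (-0.47, limma adjusted p = 0.0123) and PWD from C57 for Hk3 (-0.72, limma adjusted p = 0.00447). The C57 difference for Hk1 was -0.47 (limma adjusted p = 0.0487) in libraries 1 and 2 and -0.47 (limma adjusted p = 0.05) in libraries 3 and 4.

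Within the summed hexokinase TPM, Hk2 held 51.1% ± 0.977 in PWD LPS and 38.6% ± 1.63 in PWD untreated, and 42.3% ± 1.84 in C57 LPS and 35.5% ± 1.96 in C57 untreated. In B6 it held 33.8% ± 1.46 after LPS and 37.4% ± 3.41 untreated, and there the libraries overlapped. Hk3 held 23.6% ± 1.83 in PWD LPS against 32.3% ± 2.33 in PWD untreated, and 44.6% ± 0.916 in B6 LPS against 40.9% ± 2.99 in B6 untreated. In C57 LPS Hk3 held 38.9% ± 1.60. After LPS the leading hexokinase transcript was therefore Hk2 in PWD and Hk3 in B6, while in C57 Hk2 led in 3 of 4 libraries and Hk3 in library 4.

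**Figure D2:**
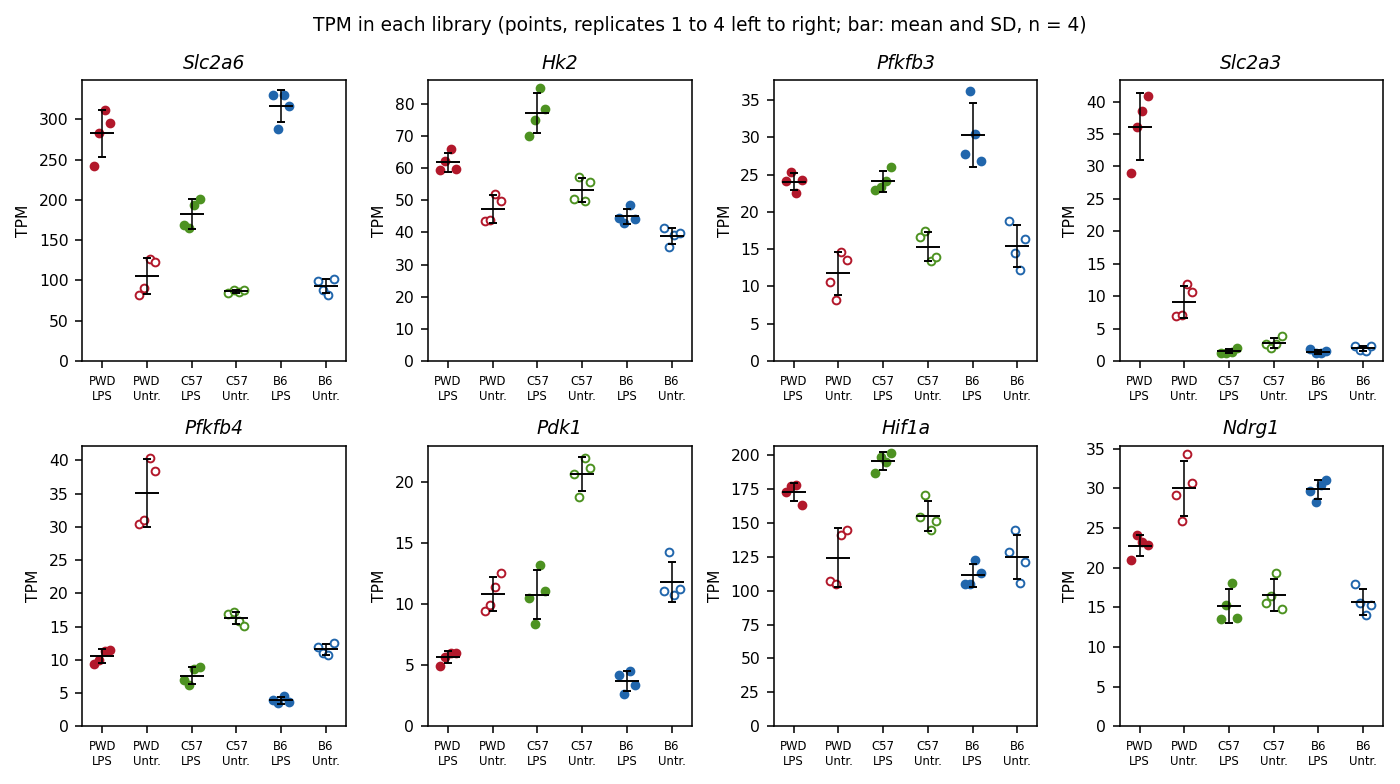
TPM of 8 genes in each library (points) with the group mean and SD (lines), for PWD, C57 and B6 with LPS to the left of untreated. Slc2a3 reaches 29.0 to 40.9 TPM in PWD LPS while C57 and B6 stay under 4 TPM, and Ndrg1 is higher after LPS in B6 and lower after LPS in PWD.

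Pfkfb3 and Pfkfb4, 2 enzymes that set the level of fructose 2,6-bisphosphate, moved in opposite directions in every strain. Pfkfb3 (chr2:11471433-11554077, minus strand), with the strongest kinase activity of the family, stood at 24.1, 25.4, 22.5 and 24.3 TPM after LPS, against 10.6, 8.21, 14.6 and 13.6 TPM untreated in PWD. It stood at 22.9, 23.3, 24.2 and 26 TPM after LPS, against 16.6, 17.4, 13.4 and 13.9 TPM untreated in C57, and at 27.7, 36.2, 30.4 and 26.8 TPM after LPS, against 18.8, 14.4, 12.2 and 16.3 TPM untreated in B6. The groups did not overlap within any strain. Pfkfb3 rose by 1.00 ± 0.14 (SE, limma adjusted p = 6.91e-07) in PWD, 0.63 ± 0.14 (SE, limma adjusted p = 0.000339) in C57 and 0.94 ± 0.14 (SE, limma adjusted p = 1.14e-06) in B6.

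Pfkfb4 (chr9:108991778-109032228, plus strand), a known hypoxia target, stood at 9.38, 10.0, 11.4 and 11.6 TPM after LPS, against 30.4, 31.1, 40.4 and 38.4 TPM untreated in PWD. It stood at 6.91, 6.19, 8.59 and 8.90 TPM after LPS, against 17, 17.2, 15.9 and 15.1 TPM untreated in C57, and at 4.04, 3.46, 4.58 and 3.66 TPM after LPS, against 12, 11.1, 10.7 and 12.5 TPM untreated in B6. Every LPS library was below every untreated one of its strain. Pfkfb4 fell by 1.63 ± 0.11 (SE, limma adjusted p = 2.9e-12) in PWD, 1.01 ± 0.11 (SE, limma adjusted p = 3.33e-08) in C57 and 1.35 ± 0.11 (SE, limma adjusted p = 6.11e-11) in B6, and the fall was larger in PWD than in C57 (-0.62 ± 0.16 SE, limma adjusted p = 0.00942). That difference was -0.31 (limma adjusted p = 0.161) in libraries 1 and 2 and -0.93 (limma adjusted p = 0.00339) in libraries 3 and 4. Pfkfb3 held 69.4% ± 2.80 of the pair's summed TPM in PWD LPS against 24.9% ± 2.66 in PWD untreated. It held 76% ± 2.37 in C57 LPS against 48.4% ± 1.98 in C57 untreated, and 88.4% ± 1.99 in B6 LPS against 56.8% ± 3.19 in B6 untreated. Untreated PWD cells thus carried mostly Pfkfb4, and in every strain Pfkfb3 led after LPS.

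**Figure D3:**
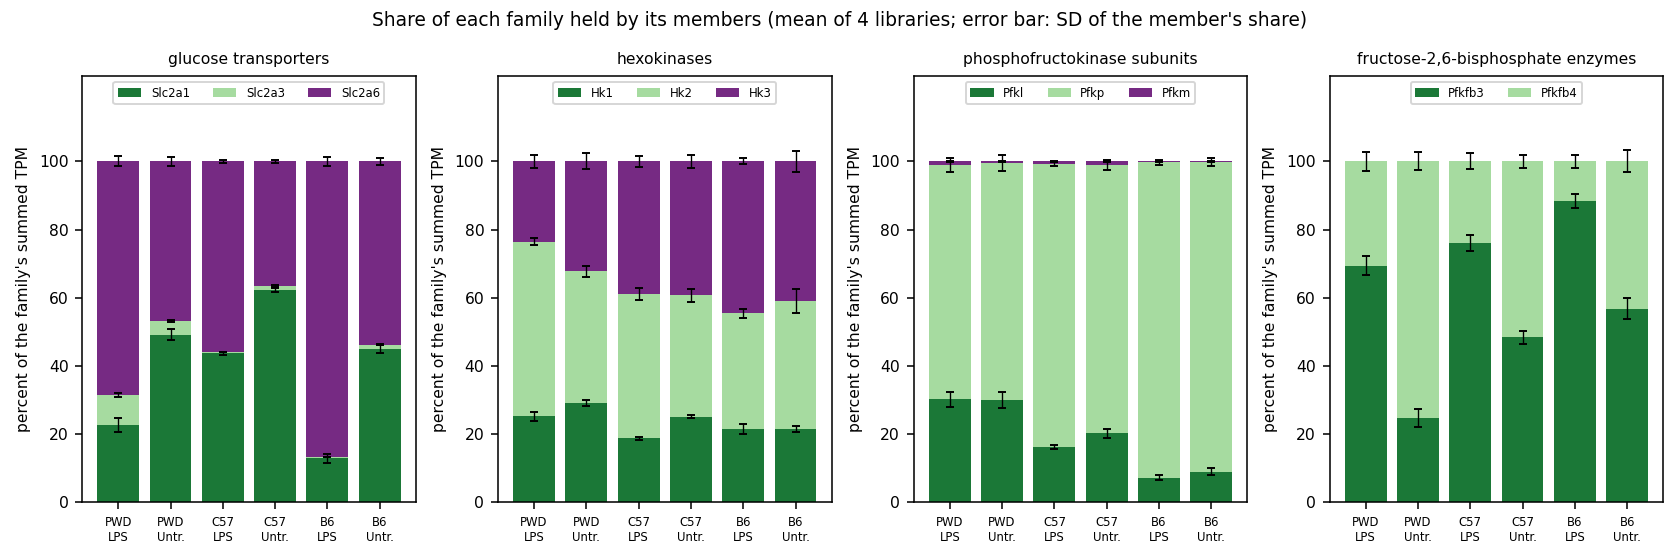
Share of each gene (percent of the summed TPM of its family, mean of 4 libraries, bars are SDs of the gene's share) among glucose carriers, hexokinases, phosphofructokinase subunits and the Pfkfb pair, for PWD, C57 and B6 with LPS to the left of untreated. Slc2a6 and Pfkfb3 take a larger share after LPS in all 3 strains, and the share of Pfkl is highest in PWD and lowest in B6 with either treatment.

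The phosphofructokinase subunits Pfkl and Pfkp differed between PWD and B6. Pfkl, the liver-type subunit, averaged 37.8 ± 1.92 TPM in PWD LPS and 39.7 ± 7.81 TPM in PWD untreated, 31.9 ± 4.84 TPM in C57 LPS and 36.7 ± 0.979 TPM in C57 untreated, and 15.4 ± 0.696 TPM in B6 LPS and 17.4 ± 1.08 TPM in B6 untreated. Pfkp, the platelet-type subunit, averaged 86.2 ± 6.97 TPM in PWD LPS and 91.4 ± 15.9 TPM in PWD untreated, 162 ± 17.3 TPM in C57 LPS and 142 ± 8.59 TPM in C57 untreated, and 198 ± 19.6 TPM in B6 LPS and 176 ± 18.8 TPM in B6 untreated. Neither passed the test for LPS in any strain by the fit without rescaling, but after median-of-ratios scaling Pfkp was called higher in all 3 strains (0.31 in PWD, 0.55 in C57 and 0.74 in B6) and Pfkl in PWD and B6 (0.33 and 0.37). PWD exceeded B6 in Pfkl by 1.24 ± 0.11 (SE, limma adjusted p = 1.16e-10) after LPS and 1.12 ± 0.11 (SE, limma adjusted p = 1.04e-09) untreated, and was lower in Pfkp, with log2 differences of -1.19 ± 0.11 (SE, limma adjusted p = 2.21e-10) and -0.95 ± 0.11 (SE, limma adjusted p = 2.33e-08). Pfkl made up 30.2% ± 2.15 of the subunit TPM in PWD LPS and 30.1% ± 2.37 in PWD untreated, 16.3% ± 0.639 in C57 LPS and 20.3% ± 1.30 in C57 untreated, and 7.24% ± 0.743 in B6 LPS and 9.06% ± 1.08 in B6 untreated. Pfkm, the muscle-type subunit, stayed at 2.17 TPM or less in every library.

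Gpi1, which turns glucose 6-phosphate into fructose 6-phosphate, fell in the 3 strains in all 4 scalings. It averaged 149 ± 11.9 TPM in PWD LPS and 226 ± 40.7 TPM in PWD untreated, 166 ± 36 TPM in C57 LPS and 289 ± 9.66 TPM in C57 untreated, and 113 ± 10.8 TPM in B6 LPS and 242 ± 19.8 TPM in B6 untreated. It fell by 0.83 ± 0.12 (SE, limma adjusted p = 3.53e-06) in C57 and by 1.10 ± 0.12 (SE, limma adjusted p = 1.78e-08) in B6. Of the aldolases, Aldoa, the main form, averaged 632 ± 18.3 TPM in PWD LPS and 859 ± 104 TPM in PWD untreated and made up at least 94.6% of aldolase TPM in every library. Aldoa was called lower with LPS in each strain, but the median-of-ratios changes were -0.05 in PWD, -0.04 in C57 and -0.04 in B6 and were not called. Aldoc, the brain-type form, fell by 0.70 ± 0.12 (SE, limma adjusted p = 1.69e-05) in PWD, in all 4 scalings.

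All 6 enzymes from triose phosphate to pyruvate (Tpi1, Gapdh, Pgk1, Pgam1, Eno1 and Pkm) were called lower with LPS in every strain. Part of this held in all 4 scalings: 3 of the 6 in PWD and 4 of the 6 in C57 and in B6. Pkm, the pyruvate kinase, averaged 348 ± 10.8 TPM in PWD LPS and 577 ± 68 TPM in PWD untreated, 499 ± 75.4 TPM in C57 LPS and 744 ± 16 TPM in C57 untreated, and 369 ± 21.1 TPM in B6 LPS and 635 ± 47.3 TPM in B6 untreated. It fell by 0.72 ± 0.09 (SE, limma adjusted p = 2.23e-07) in PWD. Tpi1, triose phosphate isomerase, stood at 83.3, 77, 90.1 and 73 TPM after LPS, against 177, 158, 147 and 164 TPM untreated in B6, with no overlap, and fell by 0.99 ± 0.10 (SE, limma adjusted p = 1.12e-09). For Gapdh and Pgk1 the median-of-ratios change was between -0.09 and 0.18 in the 3 strains, and in B6 it was called higher for both (0.18 and 0.15), so their direction in B6 depends on the scaling. Pgk1 is X-linked and libraries 1 and 2 differ in sex from 3 and 4, alike in all groups.

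The 3 transcripts for lactate formation and export were called lower with LPS in C57 and B6, and in all 4 scalings 2 of 3 were so in C57 and 3 of 3 in B6. Slc16a1 (chr3:104638668-104658462, plus strand), the lactate and pyruvate carrier MCT1, had the largest fall of the 3 genes. It stood at 4.40, 4.07, 4.18 and 4.25 TPM after LPS, against 12.1, 11.9, 13.6 and 14 TPM untreated in PWD. C57 cells had 4.63, 4.37, 4.52 and 4.69 TPM after LPS, against 11.4, 10.3, 10.0 and 10.7 TPM untreated, and B6 cells had 2.03, 1.83, 2.24 and 1.84 TPM after LPS, against 6.20, 6.13, 6.72 and 7.97 TPM untreated. The LPS and untreated libraries did not overlap in any strain. Slc16a1 fell by 1.41 ± 0.09 (SE, limma adjusted p = 7.25e-13) in PWD, 1.06 ± 0.09 (SE, limma adjusted p = 3.51e-10) in C57 and 1.37 ± 0.09 (SE, limma adjusted p = 8.38e-13) in B6, in all 4 scalings. Slc16a3, the lactate exporter MCT4, is the more abundant carrier and held at least 85.8% of the pair's TPM in every library.

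Ldha, which forms lactate, showed a strain difference. It averaged 556 ± 39.9 TPM in PWD LPS and 616 ± 43.9 TPM in PWD untreated, 462 ± 58.9 TPM in C57 LPS and 615 ± 13.8 TPM in C57 untreated, and 312 ± 14.8 TPM in B6 LPS and 512 ± 35.5 TPM in B6 untreated. The log2 change in B6 was -0.71 ± 0.08 (SE, limma adjusted p = 2.95e-08) and was called lower in all 4 scalings. That in C57 was -0.42 ± 0.08 (SE, limma adjusted p = 0.000109), but -0.05 and not called after median-of-ratios scaling. In PWD the change of -0.15 ± 0.08 (SE, limma adjusted p = 0.127) was not called, and it turned to 0.24, called, under that scaling. The PWD response exceeded the B6 response by 0.57 ± 0.12 (SE, limma adjusted p = 0.000798) for Ldha and by 0.68 ± 0.12 (SE, limma adjusted p = 0.000125) for Slc16a3, both in all 4 scalings. The Ldha difference was 0.78 (limma adjusted p = 0.0011) in libraries 1 and 2 and 0.36 (limma adjusted p = 0.0538) in libraries 3 and 4. Slc16a3 averaged 73.1 ± 1.05 TPM in PWD LPS and 82.9 ± 9.24 TPM in PWD untreated, against 32.2 ± 1.76 TPM in B6 LPS and 59 ± 4.0 TPM in B6 untreated.

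The 3 pentose phosphate enzymes were called lower with LPS in every strain, and in all 4 scalings 3 of 3 were called lower in PWD and 1 of 3 in C57 and in B6. G6pdx, the X-linked entry enzyme that makes NADPH, averaged 66.9 ± 5.39 TPM in PWD LPS and 103 ± 16.6 TPM in PWD untreated, 91.8 ± 13.9 TPM in C57 LPS and 123 ± 8.74 TPM in C57 untreated, and 79.7 ± 11 TPM in B6 LPS and 107 ± 13.3 TPM in B6 untreated. Its log2 change was -0.60 ± 0.12 (SE, limma adjusted p = 0.000137) in PWD, -0.43 ± 0.12 (SE, limma adjusted p = 0.00332) in C57 and -0.43 ± 0.12 (SE, limma adjusted p = 0.00297) in B6. The PWD value held in all 4 scalings, whereas the median-of-ratios value was -0.07 in C57 and turned to 0.13 in B6, neither called. The C57 change was -0.67 (limma adjusted p = 0.00184) in libraries 1 and 2 and -0.19 (limma adjusted p = 0.176) in libraries 3 and 4. Tkt, the transketolase of the non-oxidative branch, averaged 180.4 ± 7.07 TPM in PWD LPS and 297 ± 43.6 TPM in PWD untreated, and fell by 0.70 ± 0.10 (SE, limma adjusted p = 1.87e-06). The lower Tkt level held in all 4 scalings in C57 and B6 too, with means of 193 TPM in C57 LPS against 282 TPM in C57 untreated, and 138 TPM in B6 LPS against 244 TPM in B6 untreated. Pgd, the next NADPH-forming enzyme, averaged 230.2 ± 10.6 TPM in PWD LPS and 363 ± 57.1 TPM in PWD untreated, 343 ± 34.7 TPM in C57 LPS and 425 ± 3.27 TPM in C57 untreated, and 291 ± 26.2 TPM in B6 LPS and 405 ± 29.2 TPM in B6 untreated. Its median-of-ratios value turned to 0.05 in C57 and 0.08 in B6, neither called.

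Hif1a (chr12:73901375-73947530, plus strand), which encodes HIF-1α, rose in PWD and C57. PWD cells stood at 172, 177, 177 and 163 TPM after LPS, against 107, 105, 141 and 145 TPM untreated. C57 cells stood at 186, 198, 195 and 202 TPM after LPS, against 154, 170.0, 144 and 151 TPM untreated, and B6 cells at 105, 105, 122 and 113 TPM after LPS, against 128, 145, 106 and 121 TPM untreated. The PWD and C57 groups were fully separated, and the B6 groups overlapped. Hif1a rose by 0.49 ± 0.10 (SE, limma adjusted p = 0.000178) in PWD and 0.33 ± 0.10 (SE, limma adjusted p = 0.00552) in C57, in all 4 scalings. The B6 change of -0.16 ± 0.10 (SE, limma adjusted p = 0.153) was not called. Without B6 untreated library 3 it was -0.24 (limma adjusted p = 0.0396), a call of lower, and after median-of-ratios scaling it was 0.40 (limma adjusted p = 5e-05), a call of higher. The response exceeded that of B6 by 0.65 ± 0.14 (SE, limma adjusted p = 0.00136) in PWD and 0.50 ± 0.14 (SE, limma adjusted p = 0.0186) in C57, in all 4 scalings. The PWD difference was 1.09 (limma adjusted p = 0.000192) in libraries 1 and 2 and 0.20 (limma adjusted p = 0.317) in libraries 3 and 4. The C57 difference was 0.62 (limma adjusted p = 0.0175) in libraries 1 and 2 and 0.37 (limma adjusted p = 0.0704) in libraries 3 and 4. The C57 difference lost its call without B6 untreated library 2 (log2 difference 0.42, limma adjusted p = 0.0501). The PWD rise itself was called in both pairs of libraries, with 0.72 (limma adjusted p = 6.22e-05) in libraries 1 and 2 and 0.25 (limma adjusted p = 0.0226) in libraries 3 and 4. Untreated PWD and B6 cells were not called different over all libraries (-0.01, limma adjusted p = 0.916), while libraries 1 and 2 and libraries 3 and 4 gave opposite values: -0.36 (limma adjusted p = 0.0047) in libraries 1 and 2 and 0.33 (limma adjusted p = 0.00567) in libraries 3 and 4.

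The prolyl hydroxylases, themselves HIF targets, did not follow one direction. Egln3 (PHD3) stood at 25.3, 19.1, 20.7 and 19 TPM after LPS, against 14.8, 13.5, 18.7 and 17.5 TPM untreated in PWD and at 5.75, 5.57, 8.83 and 5.85 TPM after LPS, against 8.72, 10.5, 9.34 and 8.58 TPM untreated in B6. It rose in PWD by 0.36 ± 0.13 (SE, limma adjusted p = 0.0146), a call lost without PWD LPS library 1 or PWD untreated library 2 (log2 difference 0.28 to 0.29, limma adjusted p = 0.0608 to 0.0739). The rise was 0.60 (limma adjusted p = 0.00365) in libraries 1 and 2 and 0.12 (limma adjusted p = 0.492) in libraries 3 and 4. In B6 it was called lower (-0.47) with overlapping libraries, but the median-of-ratios value was 0.03. The responses differed by 0.84 ± 0.18 (SE, limma adjusted p = 0.00107), PWD minus B6, and by 0.60 ± 0.18 (SE, limma adjusted p = 0.0279), PWD minus C57, and this second difference lost its call without C57 LPS library 1 or 2, C57 untreated library 3 or 4, PWD LPS library 1 or PWD untreated library 2 (log2 difference 0.51 to 0.59, limma adjusted p = 0.0526 to 0.0738) and with no filter on low genes (limma adjusted p = 0.0601). PWD minus B6 was 1.27 (limma adjusted p = 0.000854) in libraries 1 and 2 and 0.40 (limma adjusted p = 0.246) in libraries 3 and 4. PWD minus C57 was 0.89 (limma adjusted p = 0.0104) in libraries 1 and 2 and 0.31 (limma adjusted p = 0.342) in libraries 3 and 4. Egln1 (PHD2), the main oxygen sensor, fell by 0.68 ± 0.11 (SE, limma adjusted p = 1.77e-05) in C57 and 1.09 ± 0.11 (SE, limma adjusted p = 4.56e-09) in B6. In PWD it averaged 12.1 ± 0.634 TPM with LPS and 16.6 ± 2.91 TPM untreated, and its response exceeded that of B6 by 0.69 ± 0.16 (SE, limma adjusted p = 0.00268). This difference was 1.04 (limma adjusted p = 0.00106) in libraries 1 and 2 and 0.33 (limma adjusted p = 0.314) in libraries 3 and 4. Egln3 held 63.2% ± 3.08 of the summed TPM of Egln1 and Egln3 in PWD LPS and 49.4% ± 2.16 in PWD untreated, 65.1% ± 2.03 in C57 LPS and 57% ± 1.73 in C57 untreated, and 56.4% ± 3.89 in B6 LPS and 44.3% ± 2.78 in B6 untreated. Its share was higher after LPS in all 3 strains.

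Among 8 further hypoxia targets, the test gave 1 higher and 5 lower in PWD, 0 higher and 3 lower in C57, and 2 higher and 5 lower in B6. In all 4 scalings this came to 1 and 1, 0 and 2, and 2 and 1. The 1 higher in PWD was Adm, admitted to the test by its PWD LPS libraries, and without it PWD had 0 higher and 5 lower of 7. Pdk1 (chr2:71873224-71903858, plus strand), whose kinase shuts pyruvate dehydrogenase, fell in every strain in all 4 scalings. PWD cells had 4.97, 5.70, 5.98 and 6.02 TPM after LPS, against 9.47, 9.94, 11.4 and 12.5 TPM untreated. C57 cells had 10.5, 8.35, 13.1 and 11 TPM after LPS, against 20.6, 18.7, 22 and 21.1 TPM untreated, and B6 cells had 4.20, 2.68, 4.54 and 3.37 TPM after LPS, against 11, 14.2, 10.8 and 11.3 TPM untreated. The groups were separated in each strain, and Pdk1 fell by 0.82 ± 0.13 (SE, limma adjusted p = 5.56e-06) in PWD, 0.89 ± 0.13 (SE, limma adjusted p = 2.15e-06) in C57 and 1.46 ± 0.13 (SE, limma adjusted p = 2.11e-10) in B6. The fall was smaller in PWD than in B6 (0.63, limma adjusted p = 0.0122) and in C57 than in B6 (0.57, limma adjusted p = 0.036), neither of them called after quantile normalization, and the C57 difference lost its call without B6 LPS library 2 or 4, B6 untreated library 2, C57 LPS library 3 or 4 or C57 untreated library 1, 2 or 4 (log2 difference 0.46 to 0.58, limma adjusted p = 0.0504 to 0.0941) and with no filter on low genes (limma adjusted p = 0.0843). The PWD difference was 0.87 (limma adjusted p = 0.0232) in libraries 1 and 2 and 0.40 (limma adjusted p = 0.182) in libraries 3 and 4. The C57 difference was 0.64 (limma adjusted p = 0.166) in libraries 1 and 2 and 0.50 (limma adjusted p = 0.104) in libraries 3 and 4.

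Ndrg1 (chr15:66929318-66969640, minus strand), a stress- and hypoxia-induced gene, rose in B6. Its level was 21, 24.1, 23.2 and 22.8 TPM after LPS, against 29.1, 25.9, 34.3 and 30.7 TPM untreated in PWD. It was 13.6, 15.3, 18.1 and 13.7 TPM after LPS, against 15.6, 16.5, 19.4 and 14.8 TPM untreated in C57, and 29.6, 28.3, 30.5 and 31.1 TPM after LPS, against 18, 15.6, 14 and 15.3 TPM untreated in B6. The B6 LPS libraries were all above the B6 untreated ones, the PWD LPS libraries were all below the PWD untreated ones, and the C57 groups overlapped. In B6 the rise was 0.89 ± 0.10 (SE, limma adjusted p = 2.24e-08), in all 4 scalings. The PWD value of -0.38 was called without rescaling and was -0.01 after median-of-ratios scaling. The response was lower than in B6 in PWD and C57, with differences of -1.27 ± 0.14 (SE, limma adjusted p = 3.05e-07) and -1.01 ± 0.14 (SE, limma adjusted p = 3.31e-05), in all 4 scalings. P4ha1, a collagen prolyl hydroxylase subunit, also rose in B6, by 0.48 ± 0.10 (SE, limma adjusted p = 9.78e-05), and its response was lower in PWD than in B6, with a difference of -0.56 ± 0.14 (SE, limma adjusted p = 0.00383). That was -0.30 (limma adjusted p = 0.085) in libraries 1 and 2 and -0.82 (limma adjusted p = 0.00387) in libraries 3 and 4.

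Apart from Bnip3 in C57, the remaining targets were low or had no LPS call that held in all 4 scalings. Adm, the vasodilator adrenomedullin, stood at 2.42, 2.42, 2.45 and 1.56 TPM after LPS, against 0.459, 0.530, 0.357 and 0.403 TPM untreated in PWD, where the libraries did not overlap, and stayed under 1 TPM in every C57 and B6 library. Vegfa, the angiogenic factor, averaged 6.37 ± 0.762 TPM in PWD LPS and 9.30 ± 2.56 TPM in PWD untreated, 16.7 ± 2.75 TPM in C57 LPS and 16.4 ± 4.72 TPM in C57 untreated, and 17.2 ± 0.627 TPM in B6 LPS and 29.3 ± 3.77 TPM in B6 untreated. Its C57 response exceeded that of B6 by 0.78 ± 0.25 (SE, limma adjusted p = 0.0331), a call absent after median-of-ratios scaling and lost without B6 LPS library 1 or 4, B6 untreated library 1 or 2, C57 LPS library 2, 3 or 4 or C57 untreated library 3 or 4 (log2 difference 0.60 to 0.78, limma adjusted p = 0.0551 to 0.0814) and with no filter on low genes (limma adjusted p = 0.0931). It was 0.58 (limma adjusted p = 0.256) in libraries 1 and 2 and 0.99 (limma adjusted p = 0.00595) in libraries 3 and 4. Ankrd37 stood between 0.887 and 6.10 TPM in all 24 libraries. Ero1l, an oxidase of protein folding, averaged 64.6 ± 5.67 TPM in PWD LPS and 75.3 ± 15.5 TPM in PWD untreated, and 38.5 ± 2.50 TPM in B6 LPS and 53.5 ± 6.0 TPM in B6 untreated. Bnip3, a mitophagy receptor, fell in C57 by 0.66 ± 0.13 (SE, limma adjusted p = 0.000115), in all 4 scalings.

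Set side by side, 11 of the 37 responses were higher and 4 lower in PWD than in B6, against 16%, 7.5% and, in either direction, 23.5% of all tested genes. In all 4 scalings these were 10 higher and 4 lower. C57 minus B6 gave 5 higher and 3 lower (all genes 10.9% and 3.39%, in either direction 14.3%), 2 and 3 of them in all 4 scalings, and PWD minus C57 gave 4 higher and 2 lower (all genes 5.41% and 5.99%, in either direction 11.4%), all of them in all 4 scalings. These comparisons share libraries and are not independent of each other. Slc2a3, Hk1, Hk3, Egln3 and Ndrg1, 5 of the 37, were called higher with LPS in one strain and lower in another without rescaling, as were 1.96% of all tested genes.

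Between strains, PWD LPS against B6 LPS gave 21 genes higher and 10 lower of the 37, where 49.7% of all genes were higher, 19% lower and 68.6% called in either direction, and the strains did not overlap for 31 of the 37 genes, against 65.9% of all genes. PWD untreated against B6 untreated gave 17 higher and 7 lower, against 37.2%, 19.7% and, in either direction, 57% of all genes, with no overlap for 21 of the 37 genes, against 44.3%. After median-of-ratios scaling the splits were 16 and 17 after LPS and 14 and 15 untreated, and in all 4 scalings 14 and 9 after LPS and 14 and 7 untreated. The mm10 build was used for the libraries of all strains, and the part of read mapping in the differences between strains was not tested. Differences above 1 on the log2 scale in both treatments were those of Slc2a3 and Pfkl, given above, and of Pfkfb4, Gapdh and Vegfa. Pfkfb4 was higher in PWD by 1.23 ± 0.11 (SE, limma adjusted p = 2.54e-10) after LPS and 1.51 ± 0.11 (SE, limma adjusted p = 5.2e-12) untreated. Vegfa was lower in PWD, with differences of -1.31 ± 0.17 (SE, limma adjusted p = 3.46e-07) and -1.59 ± 0.17 (SE, limma adjusted p = 1.9e-08). Pgam1, phosphoglycerate mutase, was higher in PWD by 0.77 ± 0.10 (SE, limma adjusted p = 2.78e-07) untreated, with 504, 517, 656 and 691 TPM in PWD untreated against 368, 336, 309 and 366 TPM in B6 untreated, which do not overlap. Egln1 and Egln3 were higher in PWD after LPS by 1.15 ± 0.11 (SE, limma adjusted p = 1.55e-09) and 1.57 ± 0.13 (SE, limma adjusted p = 2.37e-11). Pfkfb3 was lower in PWD after LPS, with a difference of -0.31 ± 0.14 (SE, limma adjusted p = 0.0459), a call lost without B6 LPS library 2 or 3 or PWD LPS library 1, 2, 3 or 4 (log2 difference -0.34 to -0.22, limma adjusted p = 0.0533 to 0.172), with a pseudocount of 0.1 TPM, with no filter on low genes, with another variance model and with a replicate block (limma adjusted p = 0.0529, 0.0965, 0.0551 and 0.0588). The difference was -0.35 (limma adjusted p = 0.0708) in libraries 1 and 2 and -0.28 (limma adjusted p = 0.0803) in libraries 3 and 4. Its untreated difference of -0.38 ± 0.14 (SE, limma adjusted p = 0.0199) was lost without B6 untreated library 1 or 4 or PWD untreated library 2 (log2 difference -0.35 to -0.23, limma adjusted p = 0.0513 to 0.125) and in a fit of these 2 groups alone (limma adjusted p = 0.0755). It was -0.76 (limma adjusted p = 0.00172) in libraries 1 and 2 but -0.0026 (limma adjusted p = 0.99) in libraries 3 and 4.

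**Figure D4:**
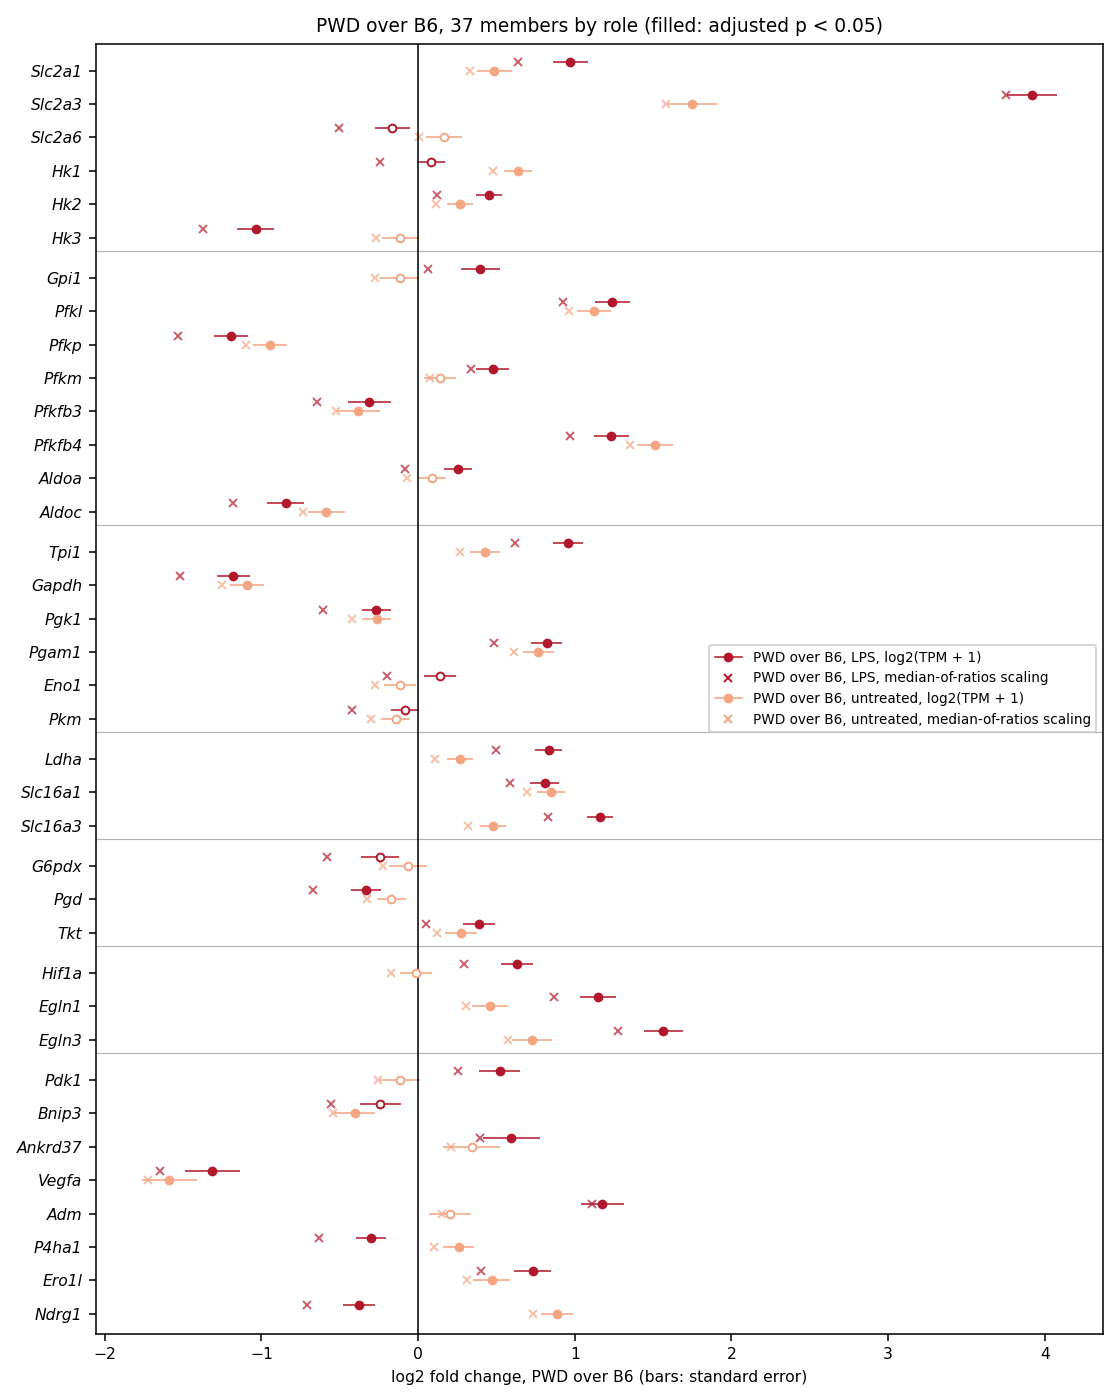
Log2 difference of TPM + 1 between PWD and B6 for the 37 genes, after LPS and untreated (x axis, log2 units; bars are SEs, filled points have a limma adjusted p below 0.05, crosses are the values after median-of-ratios scaling). Slc2a3 lies at 3.92 after LPS and 1.75 untreated, Gapdh, Pfkp and Vegfa lie left of 0 with either treatment, and Ndrg1 lies left of 0 after LPS and right of 0 untreated.

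C57 and B6 also differed. C57 LPS against B6 LPS gave 26 genes higher and 4 lower of 37, against 49.1%, 9.69% and, in either direction, 58.8% of all genes. C57 untreated against B6 untreated gave 21 higher and 3 lower, against 31.9%, 6.92% and, in either direction, 38.8%. The strains did not overlap for 27 of the 37 genes after LPS, against 53.1% of all genes, and for 26 untreated, against 39.5%. After median-of-ratios scaling the splits were 16 and 11 after LPS and 17 and 6 untreated. Slc2a1 was higher in C57 by 1.57 ± 0.11 (SE, limma adjusted p = 1.15e-11) after LPS and 0.92 ± 0.11 (SE, limma adjusted p = 3.21e-07) untreated. Slc16a3 was higher by 1.27 ± 0.08 (SE, limma adjusted p = 3.46e-12) and 0.94 ± 0.08 (SE, limma adjusted p = 2.36e-09), and Tpi1 by 1.14 ± 0.10 (SE, limma adjusted p = 2.24e-10) and 0.78 ± 0.10 (SE, limma adjusted p = 4.31e-07). Pdk1 was higher after LPS by 1.33 ± 0.13 (SE, limma adjusted p = 2.99e-09). Ndrg1 was lower in C57 after LPS, with a difference of -0.94 ± 0.10 (SE, limma adjusted p = 1.81e-08), and Vegfa was lower untreated, with -0.84 ± 0.17 (SE, limma adjusted p = 0.000465). The largest untreated difference was in Bnip3, with 20.9, 19.3, 29.2 and 23.6 TPM in C57 LPS against 11.9, 8.44, 9.55 and 7.45 TPM in B6 LPS, and 33.4, 38.7, 43.2 and 33.1 TPM in C57 untreated against 13.3, 16.4, 12.2 and 14.5 TPM in B6 untreated. The strains did not overlap in either treatment, and the differences were 1.23 ± 0.13 (SE, limma adjusted p = 1.33e-08) and 1.34 ± 0.13 (SE, limma adjusted p = 1.05e-08).

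PWD LPS against C57 LPS gave 8 higher and 14 lower of 37, against 24.4%, 29.8% and, in either direction, 54.2% of all genes. PWD untreated against C57 untreated gave 5 higher and 18 lower, against 20.1%, 26.2% and, in either direction, 46.2%. The strains did not overlap for 23 of the 37 genes after LPS, against 51% of all genes, and for 20 untreated, against 40.5%. All of these calls held in all 4 scalings. Bnip3 was lower in PWD, with differences of -1.47 ± 0.13 (SE, limma adjusted p = 2.57e-10) after LPS and -1.74 ± 0.13 (SE, limma adjusted p = 8.95e-12) untreated. Pdk1 was lower too, with -0.81 ± 0.13 (SE, limma adjusted p = 7.03e-06) and -0.87 ± 0.13 (SE, limma adjusted p = 2.51e-06), as was Hk3, with -1.28 ± 0.12 (SE, limma adjusted p = 4.72e-10) and -0.57 ± 0.12 (SE, limma adjusted p = 0.000242). Pfkfb4 was higher in PWD by 0.43 ± 0.11 (SE, limma adjusted p = 0.00204) and 1.05 ± 0.11 (SE, limma adjusted p = 9.08e-09), and Ndrg1 by 0.56 ± 0.10 (SE, limma adjusted p = 3.83e-05) and 0.82 ± 0.10 (SE, limma adjusted p = 1.48e-07).

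Some of the strain differences lie in genes with near-identical copies elsewhere in the genome, to which reads can be assigned. Eno1, the enolase, has 5 copies by sequence, and in PWD these held 35.8% of the combined length-weighted TPM after LPS and 35.2% untreated. In C57 they held 1.61% after LPS and 1.53% untreated, and in B6 1.31% after LPS and 1.55% untreated. Nearly all of the PWD signal was at Eno1b, with 155 TPM after LPS and 220.3 TPM untreated, and at the processed pseudogene Gm4735, with 149.8 TPM after LPS and 207 TPM untreated. Eno1 itself had 436, 420.1, 419 and 404 TPM in PWD LPS and 529.5, 522, 686 and 678 TPM in PWD untreated, against 405, 368, 396 and 356 TPM in B6 LPS and 691, 659, 581 and 667 TPM in B6 untreated. Taken alone, it did not pass between PWD and B6, with differences of 0.14 (limma adjusted p = 0.236) after LPS and -0.11 (limma adjusted p = 0.363) untreated. With the copies added, PWD was higher by 0.76 ± 0.10 (SE, limma adjusted p = 3.42e-07) and 0.49 ± 0.10 (SE, limma adjusted p = 0.000216). Against C57, Eno1 alone was lower in PWD, with differences of -0.49 (limma adjusted p = 0.000247) after LPS and -0.51 (limma adjusted p = 0.000188) untreated, and with the copies the differences were 0.12 ± 0.10 (SE, limma adjusted p = 0.323) and 0.09 ± 0.10 (SE, limma adjusted p = 0.492). Whether the copies are themselves transcribed in PWD, or hold reads of Eno1, cannot be told from these values, and the Eno1 comparisons with PWD are uncertain.

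Bnip3 has 4 copies, which held 15.3% of the combined signal in PWD LPS and 13.4% in PWD untreated, and averaged under 1% in each C57 and B6 group. With them added, the untreated difference between PWD and B6 was -0.22 ± 0.13 (SE, limma adjusted p = 0.149), against -0.40 (limma adjusted p = 0.0103) for the gene alone. The gene alone gave -0.59 (limma adjusted p = 0.007) in libraries 1 and 2 and -0.22 (limma adjusted p = 0.241) in libraries 3 and 4. PWD stayed below C57 with the copies, with differences of -1.26 ± 0.13 (SE, limma adjusted p = 4.68e-09) after LPS and -1.56 ± 0.13 (SE, limma adjusted p = 8.56e-11) untreated. Gapdh, glyceraldehyde 3-phosphate dehydrogenase, has 167 copies by the same rule. Its level was 639, 645, 668 and 603 TPM in PWD LPS against 1571, 1344, 1503 and 1378 TPM in B6 LPS, and 783, 774, 1010.5 and 1013 TPM in PWD untreated against 2049, 1896, 1648 and 1998 TPM in B6 untreated, with no overlap between strains. The copies held 4.86% in PWD LPS and 3.95% in PWD untreated, against 1.84% in B6 LPS and 1.92% in B6 untreated. Gapdh was lower in PWD than in B6, with differences of -1.18 ± 0.11 (SE, limma adjusted p = 2.04e-10) after LPS and -1.09 ± 0.11 (SE, limma adjusted p = 1.18e-09) untreated, and with the copies of -1.13 ± 0.10 (SE, limma adjusted p = 2.58e-10) and -1.06 ± 0.10 (SE, limma adjusted p = 1.22e-09). In the fit without rescaling all 3 genes were called lower with LPS in every strain, with and without the copies.

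**Figure D5:**
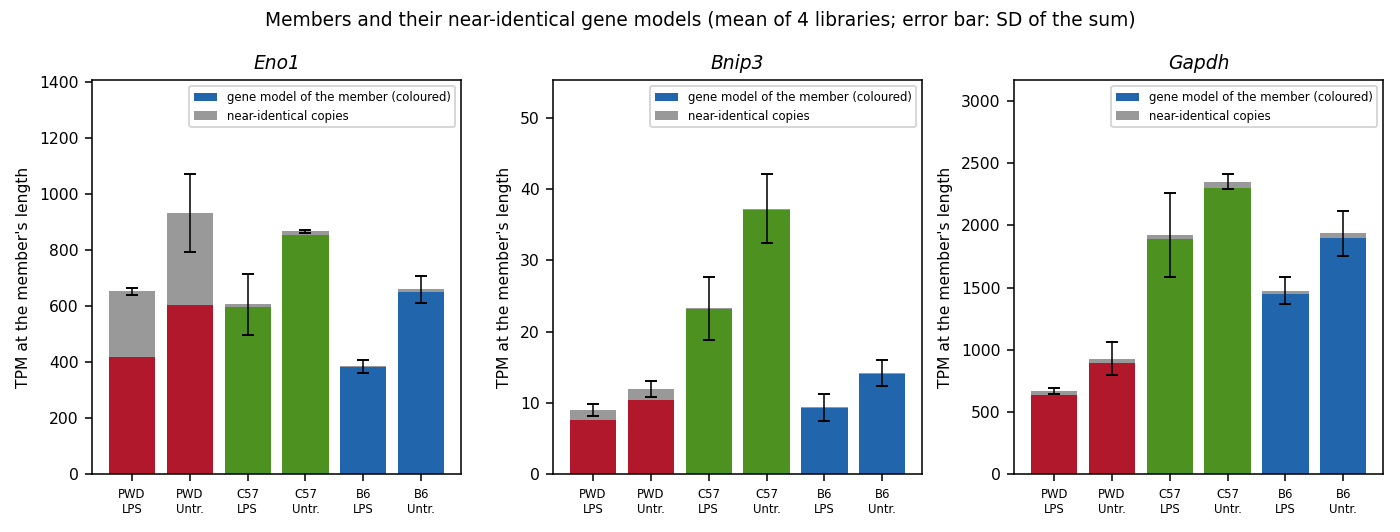
TPM of Eno1, Bnip3 and Gapdh alone and with the length-weighted TPM of their near-identical copies added, for PWD, C57 and B6 with LPS to the left of untreated (group means and SDs of 4 libraries). The added part is large for Eno1 in PWD, visible for Bnip3 in PWD, and small for Gapdh.

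Other genes of these pathways were counted from lists that do not overlap the 37. Their counts stand against 11.1% higher and 52.4% lower of all tested genes in PWD, 10.4% and 52.2% in C57, and 11.9% and 59.7% in B6. Of 19 tested genes of glycolysis and hexose handling, 1 higher and 14 lower passed in PWD, 1 higher and 14 lower in C57 and 2 higher and 14 lower in B6. After median-of-ratios scaling these were 3 higher and 11 lower, 2 higher and 8 lower and 4 higher and 9 lower. Gpd2, the mitochondrial glycerol 3-phosphate dehydrogenase, was the largest rise in each strain, by 1.16 ± 0.09 (SE, limma adjusted p = 3.53e-11) in PWD, 0.58 ± 0.09 (SE, limma adjusted p = 5.76e-06) in C57 and 0.90 ± 0.09 (SE, limma adjusted p = 2.51e-09) in B6. Of 10 tested genes of the pentose phosphate pathway and ribose use, 0 higher and 7 lower passed in PWD, 0 higher and 9 lower in C57 and 1 higher and 9 lower in B6. With median-of-ratios scaling these came to 2 higher and 5 lower, 1 higher and 7 lower and 1 higher and 7 lower. Rpia, ribose 5-phosphate isomerase, averaged 5.01 TPM in B6 LPS against 13.5 TPM in B6 untreated.

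Of 15 tested genes of the HIF machinery, 1 higher and 10 lower passed in PWD, 1 higher and 8 lower in C57 and 1 higher and 7 lower in B6. After median-of-ratios scaling these were 4 higher and 3 lower, 6 higher and 2 lower and 11 higher and 2 lower, so the balance turned in all 3 strains. Arnt2, a partner of HIF-1α related to Arnt, averaged 9.86 TPM in PWD LPS against 0.147 TPM in B6 LPS, and 22.9 TPM in PWD untreated against 0.428 TPM in B6 untreated. The log2 differences were 3.24 ± 0.13 (SE, limma adjusted p = 4.53e-18) and 4.06 ± 0.13 (SE, limma adjusted p = 3.42e-20). Cited2, which competes with HIF-1α for its coactivator, was lower in PWD, with -1.23 ± 0.08 (SE, limma adjusted p = 8.6e-13) and -0.89 ± 0.08 (SE, limma adjusted p = 6.92e-10).

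Of 38 tested further hypoxia targets, 10 higher and 15 lower passed in PWD, 10 higher and 19 lower in C57 and 11 higher and 22 lower in B6. After median-of-ratios scaling these were 15 higher and 8 lower, 16 higher and 9 lower and 15 higher and 11 lower, so here too the balance turned in all 3 strains. Nos2, the inducible nitric oxide synthase, had the largest rise in each strain. It averaged 14.7 TPM in PWD LPS against 0.164 TPM in PWD untreated, 71.6 TPM in C57 LPS against 1.34 TPM in C57 untreated, and 171 TPM in B6 LPS against 0.560 TPM in B6 untreated. Its rise was 3.75 ± 0.12 (SE, limma adjusted p = 6.01e-19) in PWD, 4.96 ± 0.12 (SE, limma adjusted p = 5.77e-21) in C57 and 6.78 ± 0.12 (SE, limma adjusted p = 1.85e-24) in B6. Lox, the collagen cross-linking lysyl oxidase, was higher in PWD than in B6 by 4.17 ± 0.14 (SE, limma adjusted p = 2.86e-19) after LPS and 3.96 ± 0.14 (SE, limma adjusted p = 8.91e-19) untreated. Of 13 tested genes of pyruvate dehydrogenase and pyruvate transport, 1 higher and 9 lower passed in PWD, 1 higher and 9 lower in C57 and 1 higher and 9 lower in B6. With median-of-ratios scaling these came to 2 higher and 6 lower, 2 higher and 6 lower and 4 higher and 5 lower. Pdk3, a pyruvate dehydrogenase kinase like Pdk1, rose in B6 by 0.47 ± 0.12 (SE, limma adjusted p = 0.00158) and was lower in PWD than in B6, with differences of -1.83 ± 0.12 (SE, limma adjusted p = 5.72e-13) after LPS and -0.78 ± 0.12 (SE, limma adjusted p = 5.08e-06) untreated.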

How the data were processed

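The authors deposited 1 table of TPM values for 24 libraries of bulk RNA-seq, and the deposited TPM of each library sums to 1000000, so depth is unknown and no counting interval is given. Per the submitters' processing notes STAR, edgeR and the mm10 build were used, with no versions given. Per the labels' protocols total RNA went into a stranded kit. The 55401 lines were summed by symbol (110 lines joined another), and 0 value columns lacked a sample. Groups come from the titles, with 4 libraries in each.

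Genes with at least 1 TPM in at least 4 libraries (13246) were tested on log2(TPM + 1) by limma 3.58.1 (R 4.3.3). Each of the 6 groups had its own mean, which leaves 18 residual degrees of freedom, variances were trended and robust, and 12 comparisons were made. P-values were adjusted over all 13246 genes by the Benjamini-Hochberg method at 0.05. The procedure was tested on simulated data. The p-values measure the spread between cultures of separate mice within a group, which includes the difference between the sexes.

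Tests are printed, per comparison, for up to 6 called members of the largest increase and 6 of the largest decrease that average at least 5 TPM in one group, and always for Hk2, Slc2a1, Pfkfb3, Ldha, Hif1a and G6pdx. In each LPS comparison and each comparison of PWD with B6, the extremes of 5 further lists may be named. Values outside this rule, such as levels, median-of-ratios changes and the copies of Eno1 and Bnip3, were chosen after they were seen. The members and lists were chosen with earlier results of these data known. Near-identical copies were found with blastn 2.17.0 in GENCODE transcripts of GRCm38 (at least 90% identity over 200 bases and 50% of the copy), and their TPM was added after weighting by transcript length. Tables were handled with Python 3.11.15 and pandas 2.3.3. Alternatives were another pseudocount (0.1 TPM), no filter, a filter of 5 TPM, 3 other scalings, another variance model, only the groups compared, terms for replicate number, library subsets, leaving out each library, and, chosen after the data were seen, adding the copies.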

Additional observations from a re-analysis of the deposited data

Results flagged for a closer look

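In 8 of 214 groups of 4 libraries with a mean of 1 TPM or more, 1 library stood further from the other 3 than Dixon's test at the 95% level allows, and chance alone flags about 1 group in 20. Aldoc stood at 15.8 TPM in PWD LPS library 1, against 14.7 to 14.8 TPM in the others. Pgk1 stood at 275 TPM in PWD LPS library 3, against 262 to 264 TPM. Slc16a3 stood at 119 TPM in C57 untreated library 3, against 112 to 113 TPM, and G6pdx at 110 TPM in the same library, against 127 to 129 TPM. Egln3 stood at 8.83 TPM in B6 LPS library 3, against 5.57 to 5.85 TPM. Pdk1 stood at 14.2 TPM in B6 untreated library 2, against 10.8 to 11.3 TPM. Vegfa stood at 7.51 TPM in PWD LPS library 1, against 5.88 to 6.08 TPM, and Adm at 1.56 TPM in PWD LPS library 4, against 2.42 to 2.45 TPM.

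Another 23 results are differences between the LPS responses of 2 strains that passed the limma interaction test. For PWD minus B6 the log2 differences were 0.49 for Slc2a1, 2.17 for Slc2a3, -0.55 for Hk1, -0.92 for Hk3, 0.57 for Ldha, 0.68 for Slc16a3, 0.65 for Hif1a, 0.69 for Egln1, 0.84 for Egln3, 0.63 for Pdk1, -0.56 for P4ha1 and -1.27 for Ndrg1. For C57 minus B6 they were 0.65 for Slc2a1, -0.70 for Slc2a6, -0.47 for Hk1, 0.50 for Hif1a, 0.57 for Pdk1, 0.78 for Vegfa and -1.01 for Ndrg1. For PWD minus C57 they were 2.50 for Slc2a3, -0.72 for Hk3, -0.62 for Pfkfb4 and 0.60 for Egln3. Their adjusted p-values and the libraries on which a call rests are given with each gene above, and 10 of the 23 were called both in libraries 1 and 2 alone and in libraries 3 and 4 alone.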

How the results depend on the processing

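The counts of calls, of the 37 members and of all tested genes, stayed within 1.5 times the main count under another pseudocount, the stricter filter, the other variance model, only the groups compared, a replicate block, a term for mouse numbers and the added copies. Main counts were 15, 8 and 6 members and 3111, 1896 and 1510 genes for the responses PWD minus B6, C57 minus B6 and PWD minus C57, 8410 genes for PWD LPS over untreated and 5135 for C57 over B6 untreated. Counts that moved further were 5 members for the response C57 minus B6 with no filter; 23 members for the response PWD minus B6, 3380 genes for the response C57 minus B6, 14 members for the response PWD minus C57 and 2861 genes for the response PWD minus C57 after median-of-ratios scaling; 15 members for the response C57 minus B6, 16 members for the response PWD minus C57 and 2966 genes for the response PWD minus C57 after quantile normalization; 5642 genes for the response PWD minus B6, 23 members for the response C57 minus B6, 4394 genes for the response C57 minus B6, 12 members for the response PWD minus C57 and 2730 genes for the response PWD minus C57 without structural RNA; 5600 genes for PWD LPS over untreated, 3393 genes for C57 over B6 untreated, 5 members for the response C57 minus B6, 725 genes for the response C57 minus B6, 16 members for the response PWD minus C57 and 2378 genes for the response PWD minus C57 in libraries 1 and 2; and 8 members for the response PWD minus B6 and 13 members for the response PWD minus C57 in libraries 3 and 4. The cause was not tested, beyond fewer libraries in the last 2. Leaving out 1 library gave 5 to 11 members for C57 minus B6.

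Log2 values of named members that changed sign, with the cause not tested, were 0.0000012 for Pfkfb3 in C57 over B6 untreated at a pseudocount of 0.1; 0.13 for G6pdx in B6 LPS over untreated, 0.40 for Hif1a in B6 LPS over untreated, 0.31 for Slc2a1 in C57 LPS over untreated, 0.16 for Slc2a1 in PWD LPS over untreated, 0.24 for Ldha in PWD LPS over untreated, -0.0036 for G6pdx in C57 over B6 untreated, -0.20 for G6pdx in C57 over B6 after LPS, 0.054 for Ldha in PWD over C57 untreated, 0.066 for Pfkfb3 in PWD over C57 after LPS and -0.12 for Pfkfb3 in the response PWD minus B6 after median-of-ratios scaling; 0.054 for Ldha in PWD over C57 untreated, 0.053 for Pfkfb3 in PWD over C57 after LPS and 0.012 for G6pdx in the response C57 minus B6 after quantile normalization; and 0.014 for Ldha in PWD over C57 untreated, 0.027 for Pfkfb3 in PWD over C57 after LPS and 0.055 for G6pdx in the response C57 minus B6 without structural RNA. In libraries 1 and 2 they were 0.027 for Ldha in PWD LPS over untreated, 0.041 for Pfkfb3 in C57 over B6 untreated, 0.094 for Pfkfb3 in PWD over C57 after LPS, 0.025 for G6pdx in the response PWD minus B6, 0.16 for Slc2a1 in the response PWD minus C57, 0.049 for Hk2 in the response PWD minus C57 and 0.20 for G6pdx in the response PWD minus C57, and in libraries 3 and 4 0.052 for Hif1a in B6 LPS over untreated, 0.068 for Slc2a1 in C57 LPS over untreated, 0.14 for G6pdx in PWD over B6 untreated, 0.33 for Hif1a in PWD over B6 untreated, 0.039 for Pfkfb3 in PWD over C57 untreated, 0.084 for Ldha in PWD over C57 untreated, -0.27 for Pfkfb3 in the response PWD minus B6, 0.16 for G6pdx in the response C57 minus B6, -0.14 for Pfkfb3 in the response PWD minus C57, -0.046 for Ldha in the response PWD minus C57 and -0.17 for Hif1a in the response PWD minus C57. With copies added, it was 0.0070 for Ldha in PWD over C57 untreated. Leaving out 1 library moved G6pdx between -0.13 and 0.019 in PWD over B6 untreated and between -0.10 and 0.057 in the response C57 minus B6, Hif1a between -0.093 and 0.061 in PWD over B6 untreated, Ldha between -0.041 and 0.028 in PWD over C57 untreated, and Pfkfb3 between -0.10 and 0.094 in C57 over B6 untreated, -0.026 and 0.034 in PWD over C57 after LPS, and -0.078 and 0.18 in the response PWD minus B6.

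The labels do not say whether LPS and untreated libraries of 1 number come from the same mouse, though the study's design text counts 4 mice per strain for 8 libraries. The 12 correlations between such libraries ranged from 0.0513 to 0.176, with 10 of 12 over 0.1, among them all 4 in C57, and 10 of 12 libraries correlated best with their own number, a hint of pairing from the data. Not every correlation was over 0.1, and the numbers were not taken as pairs in the fit reported. Its LPS and response p-values are thus those of an unpaired fit, although by that count the LPS and untreated libraries of a strain share mice. In the replicate block, LPS and response comparisons had a term for each number within a strain. Comparisons between strains had a term for the number alone, which different mice of the strains share. Changes in those comparisons are therefore not effects of pairing by mouse. With a replicate block all counts of calls stayed within 1.5 times. The block lost Pfkfb3 in PWD over B6 after LPS (limma adjusted p = 0.0588, against 0.0459 without it) and gained Slc2a3 in B6 LPS over untreated (0.0332), Hk3 in C57 LPS over untreated (0.0174), Slc2a3 in C57 over B6 untreated (0.0496), Slc2a6 in PWD over C57 untreated (0.0439) and Pfkl in PWD over C57 after LPS (0.0378). Read depth was unknown, so limits of detection for Adm, Pfkm and Ankrd37 could not be given.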
